A study of Mus musculus with 108 samples.

Results

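The reporter fragments recovered from late hemogenic endothelium (HE2) were described from the 19 sorted libraries whose titles carry this stage, out of 108 samples in the series and 95 sorted libraries. They comprised 5 Negative, 5 Low, 4 Medium and 4 High libraries and 1 library from a combined Medium/High gate. Replicates 1 to 4 had separate Medium and High gates and replicate 5 had the combined gate. For each of the 5 replicates the Low, Medium, High and Medium/High lists were joined into 1 YFP-positive set, which was compared with the Negative list of the same stage, and distal and promoter fragments were kept apart.

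All groups shared the same cells and the same reporter. HM-1, a mouse embryonic stem cell line, carried genomic fragments cut from open chromatin by the Tn5 transposase, cloned in front of the minimal HSP68 promoter and the gene of the yellow fluorescent protein Venus, and integrated at the Hprt locus. The cells were differentiated in serum, FLK1-positive cells were placed in blast culture, and HE2 cells were sorted as KIT-positive, TIE2-positive and CD41-positive before the YFP gates were set. Every fragment was therefore read in a single chromosomal position and in 1 cell line, and no RNA was measured in these files, so the identity of the sorted cells could not be checked by expression of their markers. The deposited sorted lists held each fragment once, without a count of reads.

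Hemogenic endothelium is the specialised endothelium from which blood stem and progenitor cells emerge. Its cells still carry endothelial receptors such as TIE2 while they switch on blood genes, and the transcription factor RUNX1, working with GATA2, TAL1 and ETS family factors, drives that change. An enhancer is a stretch of DNA that raises transcription from a promoter at a distance, and in this assay a fragment scored when cells that carried it were sorted as YFP-positive.

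The sequences below show what a scoring fragment looked like at genes that define the stage. For Kit, Tek, Runx1, Spi1 and Gfi1 the fragment within 100 kb of the gene start that was positive in the most HE2 replicates is shown. For the Mecom element and for 2 further distal sites the same was done within the site. Ties went first to the fragment in the fewest HE2 Negative lists. Fragments in exons or shorter than 150 bp were left out. Each line gives the central 150 bp on the plus strand of mm10. Capitals mark matches, on either strand, to the letters AGATAA for GATA factors, TGTGGT for RUNX factors, AGGAAGT for ETS factors, CAGCTG for E-box factors, TGANTCA for AP-1 or GGAATG for TEAD factors, none of which contains another.
Kit, chr5:75608080-75608229: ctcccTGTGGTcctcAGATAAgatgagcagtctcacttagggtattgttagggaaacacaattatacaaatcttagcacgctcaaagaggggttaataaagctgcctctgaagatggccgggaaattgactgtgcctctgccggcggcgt
Tek, chr4:94715289-94715438: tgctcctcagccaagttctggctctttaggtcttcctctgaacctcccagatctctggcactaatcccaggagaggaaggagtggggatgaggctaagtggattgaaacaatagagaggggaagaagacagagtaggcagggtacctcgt
Runx1, chr16:92822483-92822632: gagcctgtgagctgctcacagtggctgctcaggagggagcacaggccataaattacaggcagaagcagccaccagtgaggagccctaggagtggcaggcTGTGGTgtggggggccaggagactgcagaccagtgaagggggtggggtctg
Spi1, chr2:91082966-91083115: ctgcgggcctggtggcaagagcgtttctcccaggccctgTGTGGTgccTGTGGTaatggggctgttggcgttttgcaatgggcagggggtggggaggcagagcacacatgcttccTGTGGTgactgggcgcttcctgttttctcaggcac
Gfi1, chr5:107759247-107759396: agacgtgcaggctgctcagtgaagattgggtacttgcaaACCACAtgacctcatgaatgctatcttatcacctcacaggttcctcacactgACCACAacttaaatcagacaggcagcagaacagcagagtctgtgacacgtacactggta
Mecom element, chr3:30354286-30354435: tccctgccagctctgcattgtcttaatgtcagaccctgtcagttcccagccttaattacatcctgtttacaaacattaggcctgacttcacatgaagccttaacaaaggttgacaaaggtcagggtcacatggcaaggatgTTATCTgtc
Tgm2 site, chr2:158160157-158160306: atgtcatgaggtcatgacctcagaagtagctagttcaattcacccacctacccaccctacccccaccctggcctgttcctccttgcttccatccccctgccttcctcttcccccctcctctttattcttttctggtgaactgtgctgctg
Chd2 site, chr7:73537904-73538053: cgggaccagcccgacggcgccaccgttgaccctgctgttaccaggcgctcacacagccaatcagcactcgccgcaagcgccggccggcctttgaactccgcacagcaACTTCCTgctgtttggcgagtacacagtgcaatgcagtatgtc

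The Kit fragment lay in an intron 33238 bp downstream of the gene start and was listed as positive in replicates 1 and 2. It held 1 GATA and 1 RUNX match. The Tek fragment lay between genes, 23926 bp upstream, was positive in replicates 1 and 2, and held none of the 6 motifs. Unlike the other fragments shown, it was not identical to a fragment of the plasmid lists. The Runx1 fragment lay in an intron 3592 bp downstream of the start, was listed in the Medium and High gates of replicate 1 and the Low gate of replicate 2, and held 1 RUNX match.

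The Spi1 fragment, placed by the authors in the distal class, lay in an intron 650 bp downstream of the start used here and held 3 RUNX matches. The Gfi1 fragment lay 33286 bp upstream in intronic sequence and held 2 RUNX matches, and the Mecom fragment held 1 GATA match. None of these 6 fragments was listed in an HE2 Negative list, which the choice among ties favoured, so it is a description. Of all 10445 distal fragments positive in 2 replicates, 8513 were in no HE2 Negative list. The fragment of the site near Tgm2, a site chosen for having no Negative fragment, was listed in the Low gate of replicate 1 and the Medium/High gate of replicate 5 and held none of the 6 motifs. The fragment of the site near Chd2 was of another kind. It held 1 ETS match, was listed in 44 of the 95 sorted libraries, and in HE2 it was positive in 3 replicates and Negative in 3. The Itga2b fragment chosen in the same way is not shown. It was listed only in the Medium gate of replicate 1 and held none of the 6 motifs. Fragments so chosen at the sites near Rab11fip4, Socs3, Gnat1, Ap5z1, Ncbp3 and Neurl1a, named below and not shown, held none either. Over all 75830 distinct HE2 distal fragments of at least 150 bp, the central 150 bp held the RUNX letters in 12.1%, GATA in 8.81%, ETS in 8.64%, E-box in 13.5%, AP-1 in 8.02% and TEAD in 9.47%. A match is a run of letters and not evidence of binding.

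The 5 replicates differed widely in the number of fragments they returned. The positive sets held 202970, 129619, 16669, 2443 and 1552 fragments in replicates 1 to 5. The Negative lists held 35049, 37101, 720, 1528 and 1111. Replicates 1 and 2 thus carried most of the data, and 1 fragment was worth 0.0493 per 10000 listed fragments in the largest set and 13.9 per 10000 in the smallest. In replicate 3 the positive set came mostly from the Medium gate, with 4856 distal fragments against 151 in Low and 417 in High. The share of distal fragments was lowest in the positive set of replicate 4, at 26.4%, and in the Negative list of replicate 3, at 27.8%. Levels below are given per 10000 listed fragments so that sets of unequal size could be set side by side.

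**Figure D1:**
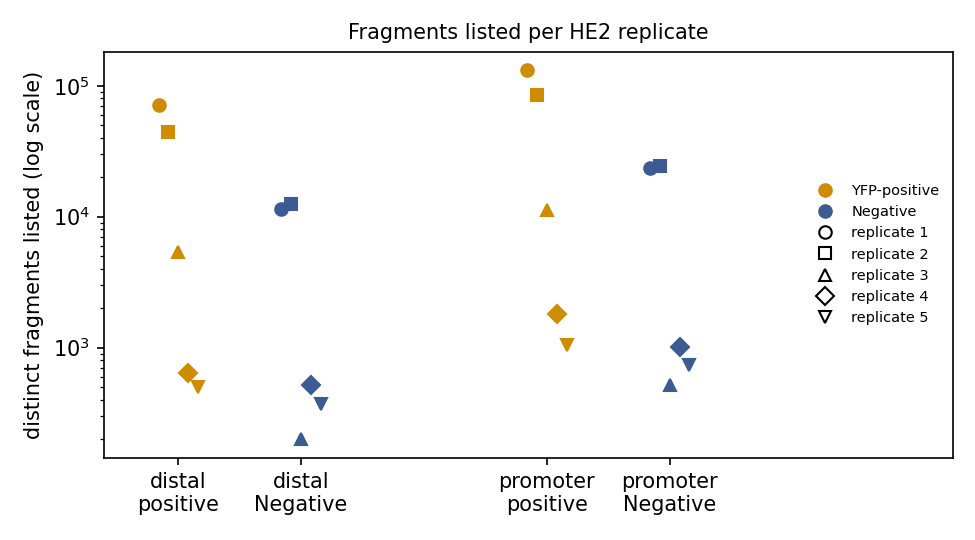
Distinct distal and promoter fragments listed in each HE2 replicate on a log scale, with 1 point per replicate and set. Replicates 1 and 2 hold from 11489 to 131938 fragments in each set and class shown, while the Negative list of replicate 3 holds 200 distal and 520 promoter fragments.

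A large number of loci scored at least once. Fragments that overlapped in any of the 95 sorted libraries were joined, which gave 58911 distal and 17849 promoter sites. In HE2, 28568 distal and 13960 promoter sites held a positive fragment in at least 1 replicate. Of the distal sites that scored, 44.2% also held an HE2 Negative fragment, and of the promoter sites 79.8% did. In the other direction, 91.4% of distal sites and 98.8% of promoter sites with a Negative fragment also scored as positive.

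Recurrence over replicates was rare for distal sites and more frequent for promoters. Positive fragments were found in at least 3 replicates at 3581 distal and 6624 promoter sites, in at least 4 at 307 and 1416, and in all 5 at 10 and 154. Negative fragments were found in at least 3 replicates at 292 distal and 1320 promoter sites. Of the sites positive in at least 3 replicates, 905 distal and 403 promoter sites held no HE2 Negative fragment. No site was Negative in 3 or more replicates without a positive fragment, in sets where the positive lists together held 353253 fragments and the Negative lists 75509. At the level of single fragments, 100704 distal fragments were positive in 1 replicate, 10445 in 2, 145 in 3 and 4 in 4. Of the 145, 86 were in no HE2 Negative list.

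**Figure D2:**
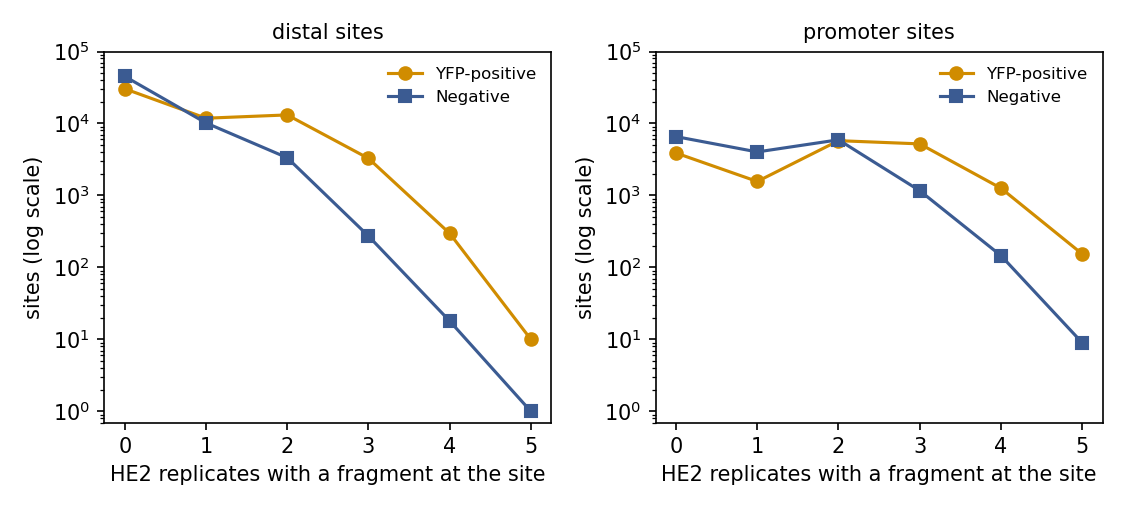
Number of distal (left) and promoter (right) sites, on a log scale, that held a positive or a Negative fragment in 0 to 5 HE2 replicates. The positive curve lies above the Negative curve from 1 replicate on for distal sites, with 3274 against 273 sites at 3 replicates, and the positive lists hold more fragments.

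Sites that scored in more replicates were also those with more cloned fragments in the reporter plasmid. The pSKB plasmid lists of the 5 stages together held a median of 5 distinct cloned fragments at distal sites that never scored in HE2, 8 at those positive in 1 replicate, 23 in 2, 50 in 3, 106 in 4 and 344 in 5. Over the 58911 distal sites Spearman's rho between the number of positive replicates and the number of cloned fragments was 0.56, and for Negative replicates it was 0.46. For the 17849 promoter sites the values were 0.76 and 0.75. These are descriptions across sites that share the same libraries, and the part of cloned fragment number in the recurrence was not tested.

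The distal sites with positive fragments in all 5 replicates and the highest mean level were seen in Negative cells as well. The site near Gatad2b, a subunit of the NuRD chromatin complex, lay on chromosome 3 (90292397 to 90293616), had 25, 17, 2, 1 and 2 positive fragments in replicates 1 to 5 and 7, 10, 1, 0 and 0 Negative ones. Its mean level was 4.14 ± 5.04 per 10000 in positive sets and 3.72 ± 5.81 in Negative lists (SD, n = 5 each). The ranges overlapped. The site near Socs3, which encodes an inhibitor of cytokine signalling, lay 5572 bp from the nearest protein-coding start on chromosome 11 (117963153 to 117964076). It had 37, 20, 6, 1 and 1 positive and 9, 9, 1, 0 and 0 Negative fragments, and its Negative level was 3.78 ± 5.79.

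The site in an intron of Chd2, a chromatin remodelling gene, lay on chromosome 7 (73537539 to 73538474) and had 35, 23, 3, 1 and 1 positive and 10, 14, 0, 0 and 1 Negative fragments. Its level was 3.17 ± 2.09 against 3.13 ± 3.69. The site near Zfp958 (chromosome 8, 4677378 to 4678482) stood at 3.71 ± 1.66 against 4.86 ± 5.59. The site near Rab11fip4 (chromosome 11, 79704004 to 79704986) stood at 4.10 ± 5.09 against 2.14 ± 3.87. Positive and Negative values overlapped at each of these 5 sites. The class is that of the deposited lists, and the sites near Gatad2b and Chd2 lay 172 and 385 bp from a protein-coding start in GENCODE. Of the 28568 HE2-positive distal sites, 1001 lay within 1500 bp of such a start.

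Among distal sites without a Negative fragment, none was positive in all 5 replicates. The site near Tgm2, which encodes tissue transglutaminase, lay between genes on chromosome 2 (158159779 to 158160470), 13688 bp from the start, and had 5, 3, 1, 0 and 2 positive fragments. The site in an exon of Gnat1, which encodes the rod transducin subunit (chromosome 9, 107675684 to 107676444), had 5, 3, 0, 1 and 1. The site in Camkk1 near Ncbp3 (chromosome 11, 73038968 to 73039701) had 3, 2, 3, 0 and 1, that in Neurl1a (chromosome 19, 47239914 to 47240795) had 3, 6, 1, 0 and 1, and that near Ap5z1 (chromosome 5, 142478726 to 142479203) had 1, 1, 1, 2 and 0. Taken over all lists these 5 sites stood at 0.142 to 0.311 positive fragments per 10000. A count of 0 in the 75509 Negative fragments allows up to 0.397 per 10000, so a lower level in Negative cells was not detectable at this depth. Such limits cover counting error only.

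Promoters that scored in all 5 replicates were likewise listed in Negative cells. The promoter of Tomm40, a subunit of the mitochondrial import pore, had 52, 35, 3, 4 and 3 positive and 14, 8, 1, 2 and 0 Negative fragments, or 8.55 ± 8.56 against 6.63 ± 6.43 per 10000 (SD, n = 5 each). The promoter of Pdhb, a subunit of pyruvate dehydrogenase, stood at 5.81 ± 4.68 against 5.19 ± 5.59, and that of Nub1 at 5.79 ± 3.37 against 8.65 ± 10.97. The promoter of Smndc1, a splicing factor, stood at 6.14 ± 7.43 against 2.52 ± 3.73. The site at Sfi1 had the largest number of fragments of these, 206 positive and 48 Negative, at 5.97 ± 1.34 against 8.88 ± 7.10. It also had 2936 cloned fragments, against 492 to 887 at the other 4 promoters. The Sfi1 site was positive in 5 replicates of ES and 5 of HE1 but stood in no list of HB or HP. The other 4 promoters were listed at both of those stages, and the reason for the gap was not tested. No group of values stood apart from the other at any of these promoters.

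The 5 promoters named next were chosen for positive fragments in the most replicates and no Negative one, so their values are a description. That of H2afz, which encodes the histone variant H2A.Z, lay on chromosome 3 (137863903 to 137864820) and had 28, 17, 1, 0 and 1 positive fragments, a level of 1.33 per 10000 over all positive lists. The promoters of Ahcy, which encodes S-adenosylhomocysteine hydrolase (14, 7, 2, 2 and 0), and of Tbrg1 (13, 6, 1, 0 and 2) stood at 0.708 and 0.623 per 10000. The promoter of Cyb5r1 (8, 4, 1, 2 and 0) stood at 0.425 and that of Zup1 (2, 2, 0, 3 and 1) at 0.226.

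The question whether any single site, promoter or locus was listed more often in positive than in Negative cells was put to limma on log2 of fragments per 10000 with 1 added. No distal site of 4613 tested passed an adjusted p of 0.05 (0% called), and 3 had an unadjusted p under 0.05 (0.065%), 1 higher (0.0217%) and 2 lower (0.0434%) in positive sets. No promoter site of 8528 passed (0%), with 32 at an unadjusted p under 0.05 (0.375%), of which 30 were higher (0.352%) and 2 lower (0.0235%). No gene locus of 11416 passed (0%), with 24 at an unadjusted p under 0.05 (0.21%), of which 23 were higher (0.201%) and 1 lower (0.00876%). The median log2 difference over all features tested was 0.04 for distal sites, 0.11 for promoters and 0.13 for loci. With the replicate number as a block limma also called none, and the smallest adjusted p was 0.689. A fit that weighted the sets by their spread called 3625 distal sites, 6729 promoter sites and 8232 loci, but its weight estimation did not converge. Evenly spread p-values would put a share of 0.05 of the features under 0.05, and the shares in the main fit were far lower. The main fit was therefore conservative on these sets, and its lack of calls cannot decide the question. A p that misses the threshold does not show that positive and Negative cells carried the same fragments. The labels number the replicates without saying what each was, so p-values measure the spread between these samples.

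Sites with small unadjusted p-values had few fragments in the short lists. The distal site in an intron of Maml2, a Notch coactivator, had 2, 1, 1, 1 and 0 positive fragments and no Negative one, with a log2 difference of 0.65 (SE 0.33, limma adjusted p = 0.998). The sites in Kirrel3 and Col13a1, which encode an adhesion protein and a collagen, stood at 0.67 and 0.69 on the same scale. The sites near Hif1an and Ephx1 had log2 differences of -1.25 and -0.79.

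Among promoters lower in positive sets the smallest p-values were those of Atp5j2, Mxd4 and Hcfc2, with log2 differences of -1.30, -1.23 and -0.81 and an adjusted p of 1.00 each by limma. Zup1, H2afz and Tbrg1, described above, had the smallest p-values of the promoters higher in positive sets. Their log2 differences were 1.39, 1.21 and 1.15, and none was called. Among gene loci higher in positive sets, that of Bahcc1 had the smallest p. It held 143, 86, 10, 2 and 4 positive and 19, 24, 0, 2 and 0 Negative distal fragments within 100 kb, or 10.7 ± 8.45 against 5.00 ± 5.43 per 10000, and its log2 difference was 1.46 (SE 0.62, limma adjusted p = 0.999). The loci of Stx7 and Taar8b shared the same 15 positive fragments and had no Negative one. Of the loci lower in positive sets, Aox2, Pnpla6 and Ppp1r35 had the smallest p-values, with log2 differences of -0.82, -1.36 and -1.44.

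The 3 genes by which HE2 cells were sorted differed in how many fragments lay around them. Kit, the receptor of stem cell factor, had 2, 5, 0, 0 and 0 positive distal fragments within 100 kb and 1, 2, 0, 0 and 0 Negative ones. Tek, which encodes the angiopoietin receptor TIE2, had 8, 9, 0, 0 and 0 against 2, 1, 0, 0 and 0. Itga2b, which encodes CD41, had 38, 11, 5, 0 and 0 against 10, 8, 0, 0 and 0. The levels were 0.0969 ± 0.167 against 0.165 ± 0.243 for Kit, 0.218 ± 0.316 against 0.168 ± 0.254 for Tek and 1.14 ± 1.29 against 1.00 ± 1.39 for Itga2b, and the ranges overlapped for each. The number of cloned fragments within 100 kb was 745, 396 and 4465. None of the 3 loci was called, with adjusted p-values of 0.999 by limma.

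At their promoters, Itga2b had positive fragments in all 5 replicates (21, 25, 2, 1 and 1) and Negative fragments in 2 (6, 2, 0, 0 and 0). The promoter level was 2.94 ± 2.31 against 0.450 ± 0.743 per 10000. In replicate 1 it was 1.03 against 1.71 and in replicate 2 1.93 against 0.539, while the values of 4.09 and 6.44 in replicates 4 and 5 were single fragments. Kit had 16, 6, 0, 0 and 0 against 4, 3, 0, 0 and 0, and Tek had 4, 1, 0, 1 and 0 against 1, 1, 0, 1 and 0. No promoter site passed the test over all sites.

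Over all 21911 protein-coding genes, 17293 had a positive distal fragment within 100 kb and 9131 had one in at least 3 replicates, so that the counts of the lists below stand beside a high share of all genes. Of 20 genes for endothelial receptors and junctions, all 20 had a positive distal fragment within 100 kb, 14 in at least 3 replicates, and 19 had a Negative one. Of the 17 tested none was called, and their median log2 difference was 0.10 beside 0.13 over all 11416 loci. Egfl7, which encodes a vascular matrix protein, had 91, 53, 3, 1 and 0 positive and 10, 17, 0, 1 and 0 Negative fragments. Acvrl1, the ALK1 receptor, had 79, 45, 7, 0 and 1 against 21, 16, 0, 0 and 0. Eng, its co-receptor endoglin, had 66, 47, 10, 0 and 1 against 15, 10, 1, 0 and 0. Their log2 differences were 0.26, 0.90 and 0.36 with standard errors from 0.87 to 0.89, so that a difference of that size lay within the spread between replicates. The windows of Egfl7 and Notch1 overlap on chromosome 2, so fragments between them were counted for both.

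Of 20 endothelial and Notch regulators, all 20 had a positive distal fragment, 16 in at least 3 replicates, and of 19 tested none was called, with a median log2 difference of 0.30. Tal1, a bHLH factor of early blood and endothelium, had 57, 32, 4, 0 and 1 positive and 11, 6, 0, 0 and 0 Negative fragments, or 2.82 ± 2.31 against 0.951 ± 1.41 per 10000. Ets1 had 57, 32, 2, 0 and 1 against 4, 7, 0, 0 and 0, or 2.58 ± 2.43 against 0.606 ± 0.870. Notch1, the receptor needed for arterial and stem cell fate, had 101, 52, 3, 1 and 0 against 14, 17, 0, 1 and 0. The log2 differences were 0.99 (SE 0.82), 1.03 (SE 0.77) and 0.20 (SE 0.89), none of them called by limma (adjusted p = 0.999). At Tal1 and Ets1 the Negative lists of replicates 3 to 5 held no fragment, and these lists were the 3 shortest.

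Blood regulators showed values on either side of the Negative level. Of 20 genes, 19 had a positive distal fragment, 14 in at least 3 replicates, where 17293 and 9131 of all 21911 genes did, and of 19 tested none was called, with a median log2 difference of 0.03. Lyl1, a bHLH factor close to Tal1, had 75, 52, 6, 0 and 1 positive and 20, 25, 1, 0 and 1 Negative fragments, and its log2 difference was -0.65 (SE 0.76). Zfpm1, which encodes the GATA partner FOG1, had 71, 42, 10, 0 and 1 against 11, 15, 0, 0 and 0 and stood at 1.11 (SE 0.88). Nfe2, a factor of megakaryocytes and red cells, had 50, 33, 2, 0 and 0 against 6, 9, 1, 0 and 1 and stood at -1.14 (SE 0.89).

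Runx1, which is needed for the step from endothelium to blood, was 1 of 3 loci of this list with positive fragments in all 5 replicates, beside Gata2 and Runx3. Of all 21911 gene loci 278 had them in all 5, among them Klf1, Hba-a1 and Klf2 of other lists. Runx1 had 29, 13, 5, 1 and 1 positive distal fragments within 100 kb and 0, 5, 0, 1 and 0 Negative ones. The level was 3.19 ± 2.20 against 1.58 ± 2.84 per 10000, and the log2 difference was 1.08 (95% interval -0.63 to 2.78, limma adjusted p = 0.999). In the replicates with long lists the order differed, with 1.43 against 0 in replicate 1 and 1.00 against 1.35 in replicate 2. Spi1, which encodes the myeloid and lymphoid factor PU.1, had 20, 20, 0, 0 and 0 against 5, 3, 0, 0 and 0, and Gfi1, a repressor of endothelial genes downstream of RUNX1, had 19, 12, 0, 0 and 0 against 3, 3, 0, 0 and 0. Their log2 differences were 0.04 (SE 0.41) and 0.03 (SE 0.34).

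The intronic element of Mecom, whose product EVI1 acts in blood stem cells, was covered by a site on chromosome 3 (30353942 to 30354684). It held 7, 7, 1, 0 and 0 positive and 4, 1, 0, 0 and 0 Negative fragments, or 0.297 ± 0.287 against 0.282 ± 0.494 per 10000. The log2 difference was 0.06 (SE 0.32, limma adjusted p = 0.998). Its positive fragments came from 3 Low, 6 Medium and 6 High entries. At other stages the site was positive in 3 replicates of HE1, 2 of HB, 2 of HP and none of ES. It was Negative in 2 replicates of HE1, 1 of HB and none of HP or ES.

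**Figure D3:**
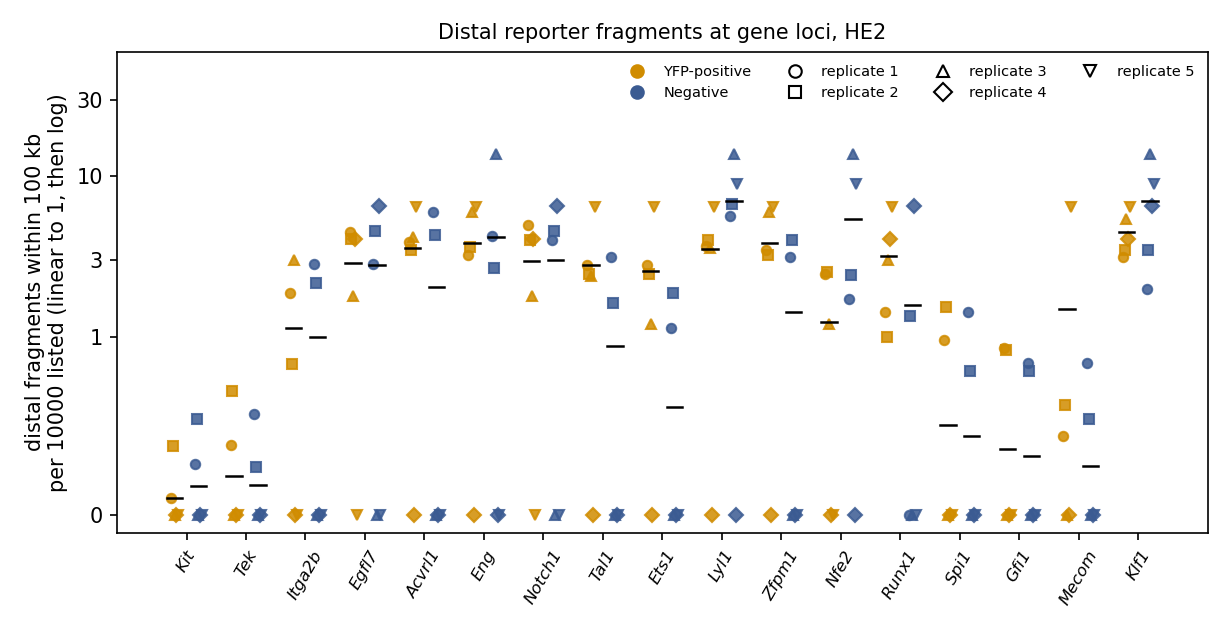
Distal fragments within 100 kb of 17 gene starts, per 10000 listed fragments (linear to 1, then logarithmic), for positive sets and Negative lists, with 1 point per replicate and a bar for the mean. Positive and Negative points overlap at all loci shown, and many points of replicates 3 to 5, whose lists are short, lie at 0.

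Genes of other lineages were counted in the same way, and most protein-coding genes had a positive distal fragment (17293 of 21911). Of 20 blood surface and signalling genes, 20 had a positive distal fragment and the median log2 difference of the 14 tested was 0.17. Lcp2 and Vav1, signalling proteins of blood cells, held 72 and 69 positive and 11 and 13 Negative fragments, and Gp1bb, a platelet receptor subunit, 49 and 18. Of 10 erythroid genes 9 had a positive fragment, led by Klf1 (120 positive, 23 Negative), the survival gene Bcl2l1 (103 and 25) and the globin gene Hba-a1 (61 and 16), with a median of 0.17 over 7 tested.

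Of 15 mesoderm and cardiac genes all 15 had one, led by Tnnt2 (81 and 13), Mesp1 (42 and 5) and Hand1 (40 and 8), with a median of 0.26 over 12 tested. Of 12 mesenchyme and smooth muscle genes 10 had one, with Col1a1 (45 and 13), Thy1 (23 and 9) and Cnn1 (18 and 2), and a median of 0.27 over 5. The locus of this list with the most fragments, 60 positive and 15 Negative, lies on chromosome 18, where the rule named none, and its log2 difference was -0.31. Of 14 pluripotency genes 13 had one, led by Klf2 (99 and 21), Lin28a (67 and 7) and Nanog (45 and 8), with a median of 0.15 over 9. None of the genes tested in these lists was called. The median number of positive fragments per gene was 42.5 for endothelial receptors, 38 for AP-1 and TEAD genes, 36 for endothelial and Notch regulators, 32 for blood regulators, 29 for mesoderm and cardiac genes, 25.5 for erythroid genes, 21.5 for pluripotency genes, 21 for blood surface genes, 20.5 for ribosomal protein genes, 17 for the sort markers and 6 for mesenchyme genes, beside 10 over all 21911 protein-coding genes. The median number of Negative fragments per gene, in the same order, was 7.5, 8.5, 6.5, 8, 4, 4, 3, 5, 8.5, 3 and 1.5. Over all genes it was 2, so most lists lay above all genes on both sides. The median number of cloned fragments around the genes of a list ran from 745 for the sort markers to 2598.5 for ribosomal protein genes, beside 1072 over all genes.

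AP-1 factors and TEAD factors are transcription factors that respond to growth and tension signals, and all 18 genes of that list had a positive distal fragment. Fos had 125 positive and 33 Negative fragments, Junb 118 and 24, and Jund 101 and 20, and the median log2 difference of the 17 tested was 0.05. Of 24 ribosomal protein genes, included as genes active in every cell, 23 had a positive fragment, led by Rplp0 (105 and 19), Rpl3 (98 and 16) and Rpl18 (83 and 17), with a median of 0.0034 over 18. None was called in either list. The median log2 differences of the 11 lists ran from 0.0034 to 0.30, beside 0.13 over all loci.

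Over all 17849 promoter sites, 13960 held a positive fragment and 6624 held one in at least 3 replicates, and the promoters of the same lists are given beside these. The list counts are per gene, over all promoter sites within 1500 bp of its starts, and include genes without a site. Shares of sites and shares of genes are thus not in the same unit. All 24 ribosomal protein genes had a positive promoter fragment, 15 of them in at least 3 replicates, with Rpl27 (33, 30, 4, 2 and 0, with 19 Negative fragments) and Rpl37 (31, 18, 5, 0 and 0, with 10) the highest. All 20 blood regulators had one, 9 in at least 3 replicates, and Lyl1 (46, 28, 6, 0 and 1, with 25 Negative) and Cbfa2t3 (39, 29, 3, 0 and 0, with 19) led them. All 20 endothelial and Notch regulators had one, led by Ets2 (22, 19, 1, 0 and 1, with 8 Negative) and Mecom (19, 15, 1, 0 and 0, with 11). Of 20 endothelial receptors 17 had one, with Egfl7 (22, 13, 2, 2 and 1, with 8 Negative) and Icam2 (22, 13, 0, 0 and 0, with 7) the highest.

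Of 20 blood surface genes 11 had a positive promoter fragment, led by Plek with 20 positive and 6 Negative and Itgb3 with 18 and 3. The highest in the other lists were Bcl2l1 (44 and 8), Pdgfra (19 and 5) and Gata4 (16 and 6), Fn1 (22 and 3) and Tagln (13 and 3), Klf2 (58 and 12) and Tbx3 (56 and 11), and Jund (82 and 14) and Jun (55 and 9). The promoter of Runx1 had 10, 5, 1, 0 and 0 positive and 2, 0, 0, 0 and 1 Negative fragments. Those of Spi1 and Gfi1 had 5 and 6 positive and 0 and 2 Negative fragments.

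Positive and Negative cells of a replicate shared many identical fragments. On average 30.5% ± 12.8 (SD, n = 5) of the shorter of the 2 distal lists was found in the other when the replicate number was the same, against 7.08% when the numbers differed. For promoter fragments it was 32.5% ± 15.9 against 8.08%. Both differences had p = 0.00833 in an exact one-sided permutation test over 120 pairings, the smallest it can give, and the adjusted value was 0.00833 for each. Each positive set shared most with the Negative list of its own replicate, except that of replicate 1, which shared 1953 distal fragments, or 17.00%, with its own Negative list and 29.6% with that of replicate 2. Replicate 4 had the highest share, 51.0% of distal and 58.0% of promoter fragments.

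**Figure D4:**
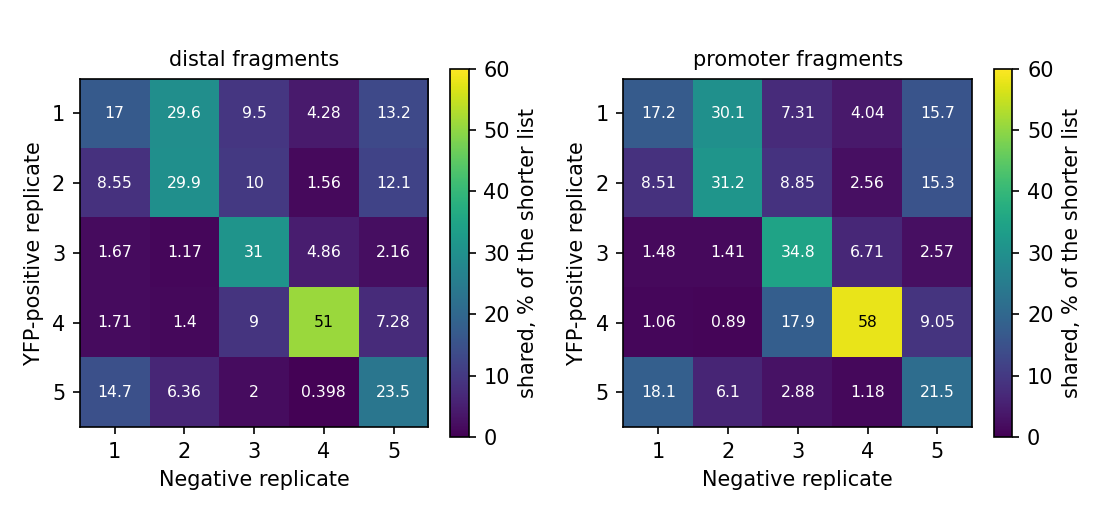
Share of identical fragments between each YFP-positive set (rows) and each Negative list (columns), in percent of the shorter list, for distal (left) and promoter (right) fragments. The same-numbered pairs on the diagonal run from 17.00% to 51.0% for distal fragments and from 17.2% to 58.0% for promoter fragments.

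Sharing was not limited to 1 stage. HE2 positive distal fragments were identical to 22.6% ± 7.53 of the shorter list for HP Negative cells of the same replicate (SD, n = 5). The share was 17.9% ± 15.3 for HE1 Negative cells, 17.8% ± 17.5 for HE1 positive cells and 14.6% ± 8.71 for HP positive cells. Other replicate numbers gave means of 5.65% to 7.48%. Single pairs with other numbers reached 29.01% for HP Negative, 21.11% for HE1 Negative, 22.34% for HE1 positive and 23.98% for HP positive cells. Each of these maxima lay above the mean for the same replicate number. The differences between stages were not tested. Among single libraries the closest to an HE2 library was HE1 Low of replicate 4, which shared 55.3% of the shorter list with HE2 Medium of replicate 4. Libraries of other numbers and stages were also close, such as HE1 Low of replicate 4 to HE2 Negative of replicate 3 (46.9%) and HB High of replicate 1 to HE2 Negative of replicate 5 (32.7%).

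The site-level share of positive fragments did not recur between the 2 deep replicates. At 3228 loci with at least 20 fragments in each of replicates 1 and 2, a median of 85.7% of the fragments were positive in replicate 1 and 77.3% in replicate 2, close to the 85.3% and 77.7% of the whole lists. Pearson's r between the replicates was -0.01 across loci, and it was -0.01 at 1119 promoter sites and -0.02 at 73 distal sites with as many fragments. Loci share fragments, and the values are given as a description without a test.

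No property of the fragments passed the test between positive and Negative cells (0% of 16). The median length of distal fragments was 194 ± 22.3 bp in positive sets and 199 ± 28.6 bp in Negative lists, GC content 55.5% ± 0.553 and 55.7% ± 0.253, and the share in introns 47.2% ± 2.35 and 48.1% ± 1.65 (SD, n = 5 each). Positive distal fragments lay 17337, 17018, 16437, 14424 and 14836 bp from the nearest protein-coding start by their medians in replicates 1 to 5, and Negative ones 16785, 16604, 11633.5, 13677 and 14155 bp. The positive value was higher in 5 of 5 replicates, but the groups overlapped and the exact permutation test gave p = 0.198 (adjusted p = 0.849). That test ignores the pairing by replicate number. With the replicate number as a block the exact permutation p was 0.0625, the smallest it can give (adjusted p = 0.5625). None of 9 distal and 7 promoter properties passed the threshold or had an unadjusted p under 0.05 in the exact permutation test.

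No motif passed either (0% of 36). RUNX letters stood in 12.1%, 12.5%, 11.5%, 10.3% and 11.8% of positive distal fragments in replicates 1 to 5 and in 12.0%, 11.8%, 4.196%, 10.8% and 10.4% of Negative ones. The low value of replicate 3 rested on 143 fragments. The means were 11.6% ± 0.825 and 9.84% ± 3.23, and the exact permutation p was 0.238 (adjusted p = 0.837). GATA letters stood in 7.90% ± 1.03 against 6.66% ± 2.38 of distal fragments, ETS letters in 8.35% ± 1.07 against 7.47% ± 2.74, and AP-1 letters in 7.60% ± 0.605 against 7.31% ± 0.647, with adjusted p = 0.837 for each by the exact permutation test.

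Among promoters the lowest p belonged to the CTCF letters, in 10.3% ± 0.317 of positive and 9.45% ± 0.737 of Negative fragments, with an exact permutation p of 0.0794 (adjusted p = 0.944). None of the 18 motifs passed in either class, and none had an unadjusted p under 0.05. The differences between positive and Negative distal fragments at HE2 were also set against those of HE1 and HP, and none of the 36 comparisons passed or had an unadjusted p under 0.05 in the exact permutation test, with a smallest adjusted p of 0.897.

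**Figure D5:**
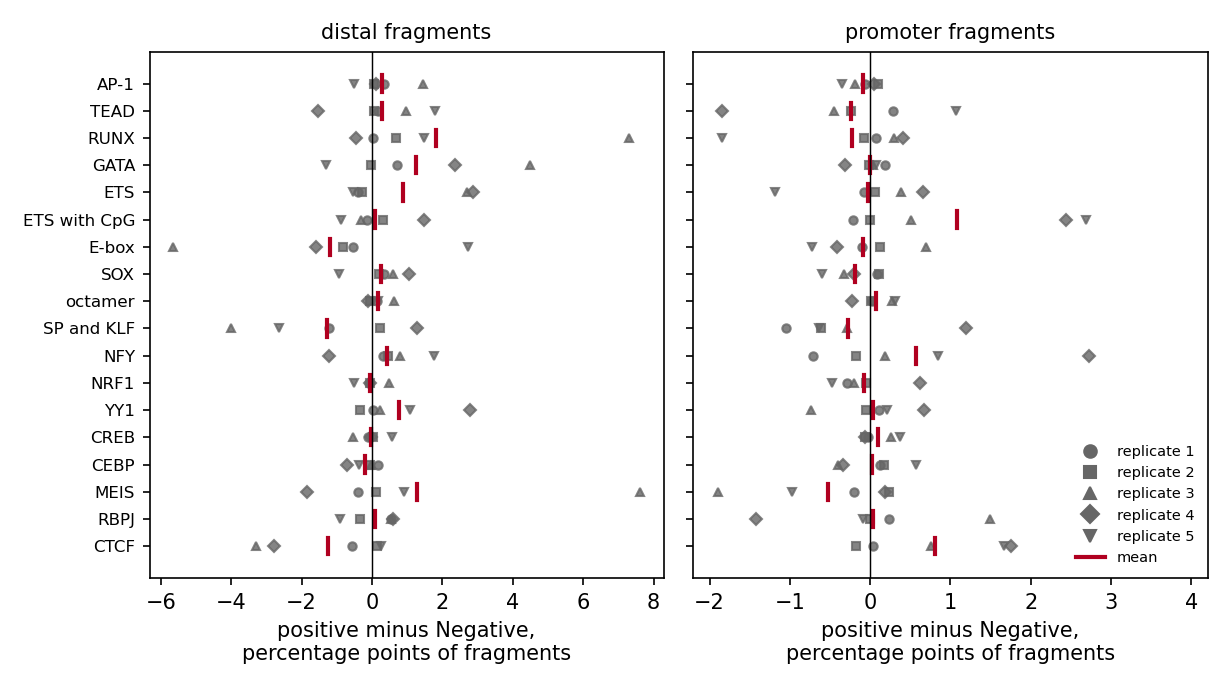
Share of fragments with each motif in their central 150 bp, positive minus Negative in percentage points, for distal (left) and promoter (right) fragments, with 1 point per replicate and a red bar for the mean. The points farthest from 0 in both panels belong to replicates 3 to 5, whose lists are short.

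The sites that recurred in HE2 were listed at the neighbouring stages to different degrees. Of the 3581 distal sites positive in at least 3 HE2 replicates, 4.97% were in no HE1 list of any gate, 17.8% in no HP list, 33.3% in no HB list and 44.1% in no ES list. For the 6624 promoter sites the shares were 1.25%, 3.91%, 4.71% and 5.01%. The order of stages for distal sites was not particular to recurrent ones. Counted by positive lists alone, 72.9% of all HE2-positive distal sites scored in HE1, 59.1% in HP, 41.2% in HB and 31.5% in ES. Of all 58911 distal sites, 51.2%, 41.3%, 36.2% and 28.9% did. Of the same distal sites 1038 were positive in at least 3 replicates of HE1, out of 2780 such HE1 sites, and 650 in at least 3 of HP, out of 1449. At the sites without an HE2 Negative fragment, 75.7% of the 905 distal ones held a Negative fragment in HE1 and 43.3% in HP, beside 58.1% and 36.3% of all HE2-positive distal sites. Libraries of the stages differ in length, and the part of list length in these shares was not tested.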

How the data were processed

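Reads of gDNA PCR products were trimmed with Trim Galore and aligned to mm10 with Bowtie2 by the authors, whose methods filter fragments against wild-type PCR controls, plasmid lists and open-chromatin peaks, and who deposited distinct intervals without read counts for the sorted cells. For plasmids and controls the authors deposited a read count beside each interval, and these counts entered no test here. Members and gene lists were chosen with earlier results of these data known. An identical plasmid fragment existed for 80.5% of the 1176477 distinct sorted fragments, and HE2 lists also held control fragments (up to 3.75%), so the deposited lists do not show both filters in full. Fragments that overlapped formed sites, and distal fragments within 100 kb of a protein-coding start (GENCODE on GRCm38) formed gene loci. Counts per 10000 listed fragments, with 1 added, were taken to log2 and tested with limma 3.58.1 in R 4.3.3 where a fragment stood in at least 4 of the 10 sets, with Benjamini-Hochberg adjustment at 0.05. Properties and motifs were tested by exact two-sided permutation (252 ways, smallest p 0.00794). Scripts were tested on simulated data. The same-numbered sets deviated together (correlations 0.16 to 0.52 for distal sites and 0.11 to 0.40 for loci, 0.083 to 0.44 for promoters). Named were the 5 sites of each class positive in all replicates with the highest mean, the 5 positive in most replicates without a Negative fragment, the 3 with the smallest p in each direction, the 3 loci and 2 promoters per list with most positive fragments, and 6 genes of the stage with the Mecom element. Items withheld from the text are not reported here.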

Additional observations from a re-analysis of the deposited data

Results flagged for a closer look

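In 15 of 108 groups of 5 values 1 replicate lay apart from the other 4 by Dixon's criterion, where chance flags about 1 in 20 groups. All 15 were in replicates 3 to 5, whose lists are short. In the Negative list of replicate 3, 27.8% of fragments were distal (others 32.8% to 33.8%), 42.5% of promoter fragments were identical to a plasmid fragment (76.1% to 84.6%) and 4.196% of distal fragments held RUNX letters (10.4% to 12.0%). In the Negative list of replicate 4, YY1 letters stood in 1.05% of distal fragments (2.10% to 2.44%).

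In the positive set of replicate 4, 59.2% of promoter fragments covered a start (46.5% to 49.8%). Its distal fragments held ETS letters with CpG in 3.85% (2.18% to 2.48%), E-box in 9.72% (13.2% to 13.9%), SP and KLF in 16.8% (13.3% to 14.2%) and CEBP in 3.24% (4.66% to 5.20%). Its promoter fragments held ETS in 3.72% (2.81% to 3.07%) and MEIS in 8.02% (7.03% to 7.30%). In the positive set of replicate 5, SOX letters stood in 1.45% of distal (2.63% to 2.86%) and 0.122% of promoter fragments (0.699% to 0.899%), E-box in 7.09% (8.22% to 8.54%) and RBPJ in 10.3% (9.08% to 9.34%) of promoter fragments.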

How the results depend on the processing

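No distal site, promoter site or locus was called by limma in the main setting or with the replicate block. None was called with 0.25 added in place of 1, with features in at least 6 sets, or scaled to the same class. The same held with High or Low lists alone as positive, with shared fragments left out, and with plasmid fragments only. It also held with 500 bp bins (distal) and with loci of 50 kb or the nearest gene. Leaving out each replicate in turn gave 0 calls for each. Beside these, the replicate block had 4 distal sites, 76 promoter sites and 125 loci at an unadjusted p under 0.05. Testing features in at least 1 set called 1 distal site. Set weights called 3625 distal sites, 6729 promoter sites and 8232 loci, of which 8173 were higher, and the weight estimation did not converge. Replicates 1 and 2 alone, chosen after seeing the data, gave 0 calls, and with the replicate block the smallest adjusted p by limma was 0.0745 (distal), 0.538 (promoter) and 0.255 (loci). The difference in shared fragments was 16.1 to 29.0 points (distal) and 16.3 to 30.1 points (promoter) without 1 replicate, each at the smallest p that the exact permutation test can then give, 0.0417. No property or motif passed under the alternatives run, but with the replicate block the smallest possible p is 0.0625, so that fit could not pass, and leaving out a replicate lowers the number of ways. Of 1128 log2 differences of the 73 named sites and loci under alternatives, 116 had another sign. List length limits all comparisons in replicates 3 to 5.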

Other observations

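Few recurrent HE2 sites were in no list of another stage. They numbered 38 distal and 6 promoter sites among those positive in at least 3 replicates, and the following were chosen after their values were seen. The distal site in an intron of Adam15, which encodes a membrane metalloproteinase, had 4, 4, 1, 0 and 0 positive and 2, 0, 0, 0 and 0 Negative fragments (chromosome 3, 89347843 to 89348582). The promoter of Pde5a, a cGMP phosphodiesterase, had 9, 6, 4, 0 and 0 positive fragments and no Negative one, with 187 cloned fragments. The promoter of Hmga1, a chromatin protein, had 4, 1, 1, 0 and 0 positive fragments and no Negative one.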
